A study of Mus musculus with 3 samples.

Results

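The 7 haemoglobin genes that switch between embryonic and adult life were followed in mouse back skin across hair follicle development. They were taken by name from the 19165 genes of the expression table: the embryonic genes *Hbb-y*, *Hbb-bh1* and *Hba-x*, and the adult genes *Hbb-bs*, *Hbb-bt*, *Hba-a1* and *Hba-a2*. Dorsal skin of male C57BL/6 mice, pooled within each stage, was taken in the embryo at E13.5 and E16.5 (days of gestation) and on the day of birth (P0), and each stage gave 1 droplet library of single cells. Fetal skin at both embryonic stages was dissociated with trypsin and newborn skin with collagenase IV, so the enzyme and birth cannot be told apart. Cells were split by the share of their unique molecular identifiers (UMIs, each counting 1 captured RNA molecule) that came from the 7 genes. Cells over 5% globin UMIs numbered 763 of 5962 in the E13.5 library, 53 of 5208 in that of E16.5 and 20 of 5065 in that of P0, and the others are called the remaining cells. At E16.5 the lowest cell inside held 5.65% and the highest outside 4.61%, and at P0 these were 6.59% and 3.79%. At E13.5 cells lay without a gap around the threshold, and 392 of the remaining cells held over 1%. The study's methods forced Cell Ranger to the same number of cells in each library. That number was below its first estimate at every stage, and furthest below at E13.5. The part of the estimated cells that was kept thus differed between stages, which limits comparison of these counts and levels.

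Haemoglobin pairs α-type with β-type chains around haem, and fills the cytoplasm of red cells. In the mouse embryo the first, primitive red cells leave the yolk sac with their nuclei and carry embryonic chains: *Hbb-y* and *Hbb-bh1* encode β-type chains and *Hba-x* the α-type chain zeta. Later, definitive red cells from the fetal liver carry the adult β-type chains of *Hbb-bs* and *Hbb-bt* and the adult α-type chains of *Hba-a1* and *Hba-a2*. Red cells are the main known site of all 7 genes.

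Within each locus the embryonic genes lie upstream of the adult genes. On chromosome 7 (GRCm38, GENCODE vM21, all on the minus strand), *Hbb-y* at chr7:103851749-103853216 is followed downstream by *Hbb-bh1* at chr7:103841637-103843164, *Hbb-bs* at chr7:103826534-103828096 and *Hbb-bt* at chr7:103812524-103813996. On chromosome 11 (plus strand), *Hba-x* at chr11:32276400-32278116 precedes *Hba-a1* at chr11:32283511-32284465 and *Hba-a2* at chr11:32296489-32297298. Each has 3 exons, and the β-type genes have a longer coding part than the α-type genes, which have 426 coding bases. The coding sequences of *Hbb-bs* and *Hbb-bt* differ at 1 base, and so do those of *Hba-a1* and *Hba-a2*. Of the 100-base windows in the last 400 bases of the transcript, which 3′ reads favour, 47.2% of those of *Hbb-bs* are found whole in *Hbb-bt* and 66.8% of those of *Hba-a1* are found whole in *Hba-a2*. Reads that match both genes of a pair over their whole length cannot be assigned to 1 of them, so the split within each adult pair is uncertain. The study's reads were longer than 100 bases, so the percentages of windows can overstate the share of such reads. If such reads were dropped, the sum of each pair is too low as well, and embryonic shares are too high. *Hbb-y*, by contrast, shared 76.4% of its coding bases with *Hbb-bh1* and 74.4% with *Hbb-bs*, and shared none of these windows with either.

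The promoters are shown for 1 embryonic β-type, 1 adult β-type and 1 adult α-type gene, as the 150 bases that end just before the RefSeq start (RefSeq, GRCm38.p6, read 5′ to 3′ on the gene's strand). Capitals mark the motif CACCC and the CCAAT box, both searched on either strand, and a TATA-like motif, ATAAA or else ATATAA, searched on the printed strand only. No matches overlapped in these windows. The RefSeq start of *Hbb-bs* lies downstream of the start of the GENCODE span given above, so its window falls within that span.
*Hbb-y* (chr7:103853208-103853357, minus strand): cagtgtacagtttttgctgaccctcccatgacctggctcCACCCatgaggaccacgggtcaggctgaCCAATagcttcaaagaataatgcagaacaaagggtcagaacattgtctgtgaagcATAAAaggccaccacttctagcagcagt
*Hbb-bs* (chr7:103827929-103828078, minus strand): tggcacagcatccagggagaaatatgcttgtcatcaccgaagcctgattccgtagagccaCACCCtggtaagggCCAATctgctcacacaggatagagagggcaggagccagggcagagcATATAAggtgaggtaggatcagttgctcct
*Hba-a2* (chr11:32296342-32296491, plus strand): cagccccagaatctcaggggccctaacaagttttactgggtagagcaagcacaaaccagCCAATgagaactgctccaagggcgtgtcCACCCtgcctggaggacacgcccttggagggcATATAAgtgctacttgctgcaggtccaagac
All 3 windows held each motif. Over the 6 genes with a promoter in the table, which lacks *Hbb-bh1*, CACCC was found in 6, the TATA-like letters in 6 and CCAAT in 5, *Hba-x* being the one without it. Among all 32851 promoters of this length, 37.4% held CACCC, 24.5% held CCAAT and 5420 held the TATA-like letters. The matches separate no embryonic from adult genes, and binding was not measured.

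The embryonic genes made up a large share of the globin UMIs at E13.5, then little at E16.5 and none at birth. In cells over 5% globin, embryonic genes held 36.8% of 760905 globin UMIs at E13.5 (exact 95% interval 36.7% to 36.9%), then 0.323% of 244448 at E16.5 (0.301% to 0.346%) and 0 of 57187 at birth, which allows a share of up to 0.00525%. In the remaining cells they held 41.0% of 201925 globin UMIs at E13.5 (40.8% to 41.2%), then 2.18% of 68352 at E16.5 (2.08% to 2.3%) and 0 of 16787 at birth, which allows up to 0.0179%. The 3 stages therefore came in the same order in both sets of cells. Each stage is 1 library and cells of 1 library are not replicates, so no test between stages was possible, and all intervals here cover counting error only. The table at P0 listed the 3 embryonic genes at 0. The study's methods drop genes seen in fewer than 3 cells of a library before they drop cells with few genes, and 1923 genes were at 0 in the P0 library, while 29 were seen in 1 cell and 196 in 2. Whether the zeros of the embryonic genes come from that filter was not tested.

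**Figure D1:**
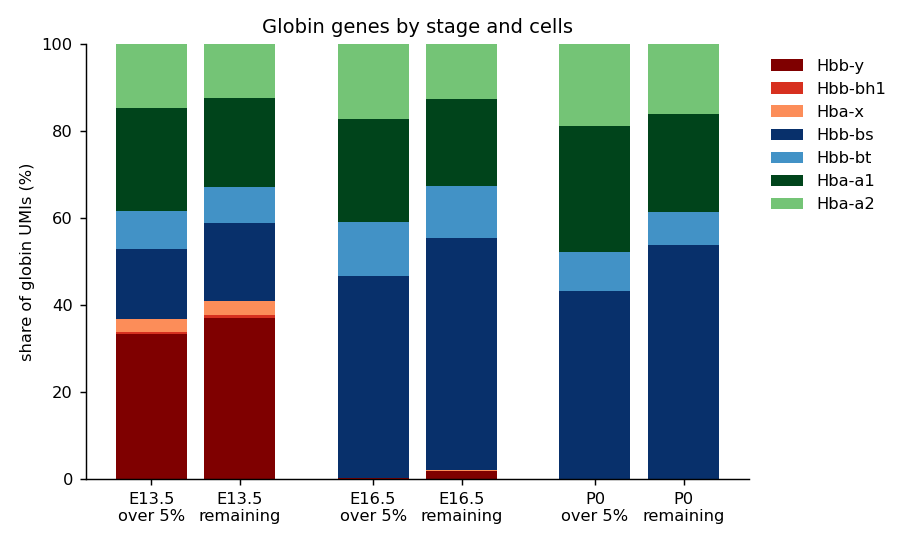
Share of each of the 7 globin genes in all globin UMIs (%, stacked to 100) in cells over 5% globin UMIs and in the remaining cells at E13.5, E16.5 and P0, 1 library per stage. Embryonic genes, in red and orange, fill 36.8% and 41.0% of the E13.5 bars, 0.323% and 2.18% of the E16.5 bars and none of the P0 bars.

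Among the embryonic genes, *Hbb-y* dominated. It held 33.3% of the globin UMIs of E13.5 cells over 5% globin, against 0.470% for *Hbb-bh1* and 2.96% for *Hba-x*. In the remaining E13.5 cells the values were 37.1%, 0.627% and 3.22% in the same order. Each UMI stands for 1 molecule read at its 3′ end whatever the transcript's length, so length does not enter these shares. How reads shared within an adult pair were treated is not given. Shares of adult against embryonic genes, and of α-type against β-type genes, carry that limit. The β-type and α-type loci were unequal in their embryonic share. Among β-type UMIs the embryonic genes held 57.5% in E13.5 cells over 5% globin and 59.1% in the remaining cells, whereas *Hba-x* held 7.18% and 8.91% of the α-type UMIs. At E16.5 the embryonic share of β-type UMIs was 0.426% in the cells over 5% and 2.82% in the remaining cells, and that of *Hba-x* among α-type UMIs was 0.175% and 0.883%.

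Among the adult genes, *Hbb-bs* was foremost at the later stages. It held 16.1% of globin UMIs in E13.5 cells over 5% globin, 46.3% at E16.5 and 43.3% at P0. *Hbb-bt* held 8.83%, 12.6% and 9.0%, *Hba-a1* held 23.5%, 23.6% and 28.8%, and *Hba-a2* held 14.7%, 17.2% and 18.9%. In these cells the order of the levels was thus *Hbb-y*, *Hba-a1*, *Hbb-bs*, *Hba-a2*, *Hbb-bt*, *Hba-x* and *Hbb-bh1* at E13.5, and *Hbb-bs*, *Hba-a1*, *Hba-a2* and *Hbb-bt*, ahead of any embryonic gene, at the later stages. Neighbours in these orders had counting intervals that did not overlap, but the intervals do not cover the treatment of reads shared within an adult pair. The balance within the adult β-type pair differed between the stages: for each *Hbb-bt* UMI there were 1.83 *Hbb-bs* UMIs at E13.5, then 3.68 at E16.5 and 4.81 at birth in the cells over 5%, and 2.15, 4.41 and 7.31 in the remaining cells. The adult α-type pair differed less, with *Hba-a1* at 61.5%, 57.8% and 60.4% of the pair in the cells over 5%.

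The remaining cells differed from the cells over 5% in 2 ways at every stage. The α-type share of globin UMIs was 41.2% in the cells over 5% and 36.1% in the remaining cells at E13.5, then 40.9% and 32.8% at E16.5 and 47.7% and 38.7% at birth. *Hbb-bs* took 64.6% of the adult β-type pair in the cells over 5% and 68.2% in the remaining cells at E13.5, then 78.6% and 81.5% at E16.5 and 82.8% and 88.0% at birth. The directions were the same in all 3 libraries, and the intervals of each pair of values did not overlap.

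Cell by cell, the E13.5 cells over 5% globin fell into a group nearly without embryonic UMIs and a group in which they prevailed. Of the 763 cells, 251 had under 10% embryonic UMIs among their globins, 449 had over 40% and 63 lay between, with a median of 49.4% and a highest value of 70.1%. These edges were chosen after the values were seen. *Hbb-y* held 1.15% of globin UMIs in the 251 cells and 49.7% in the 449 cells, and *Hba-x* held 0.117% and 4.44%. The α-type share was similar, at 41.6% and 40.7%. Most remaining E13.5 cells formed a broad group. Over the 5068 cells with at least 10 globin UMIs the median was 45.5%, the lower quartile 37.5% and the upper quartile 52.9%. These cells held few globin UMIs each, since globins made up 0.272% of the UMIs of the median remaining cell. Counting error widens this spread, and whether any of the breadth goes beyond it was not tested. A small group low in embryonic UMIs was present here too. It showed as 168 cells under 10%, set off by a dip to 28 cells between 10% and 15%, and 9 of the 168 were at or under 1% globin.

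**Figure D2:**
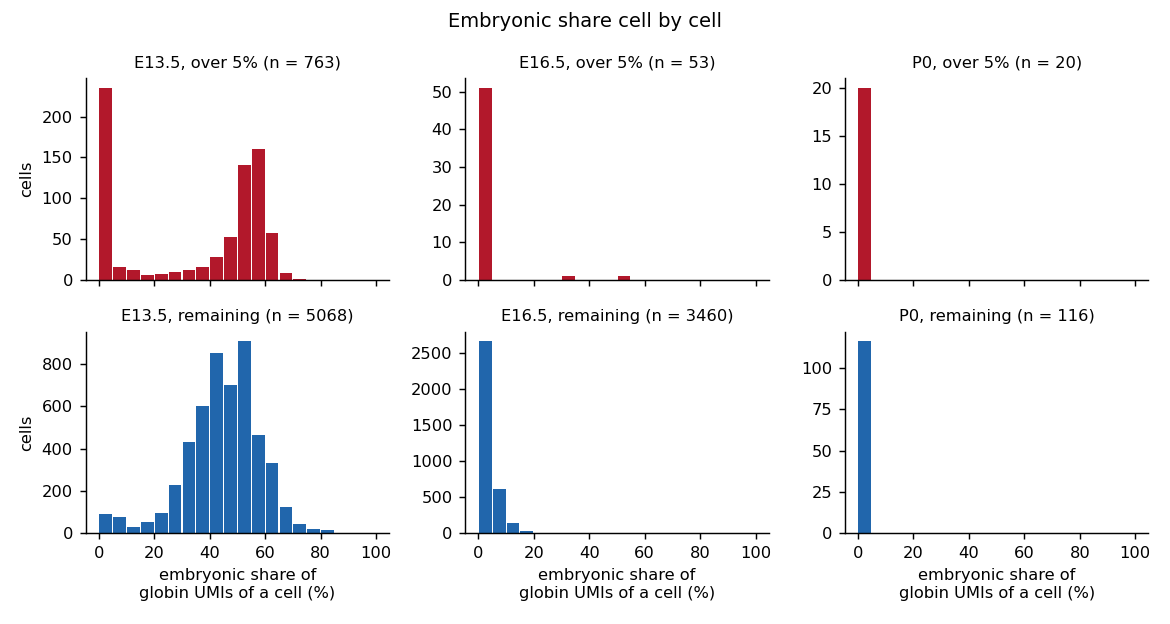
Number of cells (y axis, its scale set for each panel) by the embryonic share of a cell's globin UMIs (x axis, %, bins of 5 points), for cells over 5% globin UMIs (top) and for remaining cells with at least 10 globin UMIs (bottom) at the 3 stages. The 763 E13.5 cells over 5% form a peak under 10% and another over 40%, the E16.5 cells over 5% lie near 0 but for 2, and all P0 cells lie at 0.

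The 2 groups of E13.5 cells also differed in adult genes and in red cell genes. *Hbb-bs* took 70.6% of the adult β-type pair in the 251 cells with little embryonic globin (70.4% to 70.9%) and 45.6% in the 449 cells rich in it (45.2% to 46.1%), and the 63 cells between them gave 66.3%. Over single cells with at least 20 UMIs of the pair, the median was 71.6% in 251 cells and 43.6% in 418 cells. With edges at 20% and 30% the embryonic-rich cells gave 48.9%. *Hba-a1* took 56.3% and 64.5% of the adult α-type pair. *Alas2*, the red cell enzyme that starts haem synthesis, stood at 348 CPM (UMIs scaled to a total of 1000000, over genes other than the 7 globins) in the cells with little embryonic globin and 168 in the embryonic-rich cells. *Slc4a1*, the anion exchanger of the red cell membrane, stood at 14.8 and 28.5 CPM. In the 63 cells between, *Alas2* stood at 350 CPM and *Slc4a1* at 45.8 CPM. The *Slc4a1* values rest on 20 UMIs in the 251 cells, 17 in the 63 and 81 in the 449. *Alas2* was thus lower in the embryonic-rich cells than in the others. *Slc4a1* was higher in the embryonic-rich cells than in those with little embryonic globin, and highest in the cells between.

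**Figure D3:**
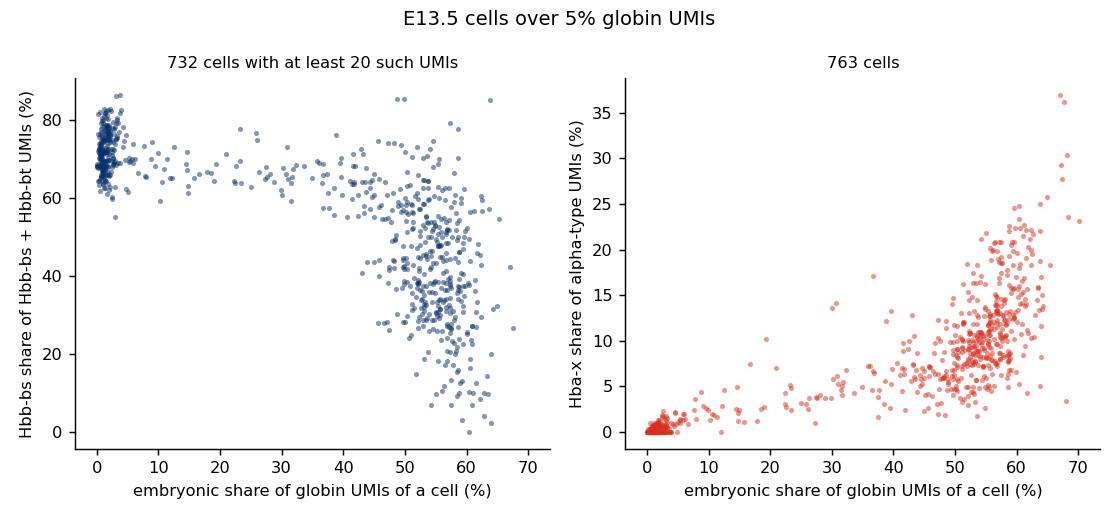
E13.5 cells over 5% globin UMIs, each point 1 cell, by the embryonic share of its globin UMIs (x axis, %). The left panel gives the share of Hbb-bs among Hbb-bs and Hbb-bt UMIs (%) and the right panel the share of Hba-x among α-type UMIs (%); cells low in embryonic globin keep Hbb-bs near 71.6% (median), and embryonic-rich cells spread around 43.6% (median).

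At E16.5, 2 cells carried nearly all embryonic UMIs of the cells over 5%. The first held 574 embryonic UMIs among 1072 globin UMIs (53.5%), with 548 from *Hbb-y* and 26 from *Hba-x*. The second held 193 of 573 (33.7%), with 46 from *Hbb-y* and 147 from *Hba-x*, so that its main embryonic gene was the α-type one. Neither shared its barcode with another library. In the other 51 cells, 23 of 242803 globin UMIs were embryonic, or 0.00947% (0.00600% to 0.0142%), and 31 of the 51 cells had none. Without the 2 cells the share of 0.323% thus came to 0.00947%. The remaining E16.5 cells differed from these 51 cells: their 1493 embryonic UMIs (2.18%) were spread thinly, with 3926 cells holding 0, 1034 holding 1, 161 holding 2, 29 holding 3 and 5 holding more, up to 15. Of the 1493 UMIs, 20 lay in the 43 cells whose barcode also occurs at E13.5. *Hbb-y* gave 1279 of them, *Hba-x* 198 and *Hbb-bh1* 16.

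Globin UMIs outside the cells over 5% were found in every cluster. In cells at or under 1% globin their embryonic share spanned few percentage points over the clusters of a stage with at least 500 globin UMIs. The cells over 5% held 79.0% of all globin UMIs at E13.5, then 78.1% at E16.5 and 77.3% at birth. For single genes this was 73.9% (*Hbb-bh1*) to 81.8% (*Hba-a2*) at E13.5, but only 32.5% for *Hbb-y* and 46.9% for *Hba-x* at E16.5. Globins made up 0.421% of the UMIs of the remaining cells at E13.5, then 0.105% at E16.5 and 0.0362% at birth. Each library was clustered without the globin genes. In cells at or under 1% globin, the embryonic share ran from 43.5% to 47.0% over the 23 E13.5 clusters with at least 500 globin UMIs, and from 1.57% to 3.59% over 23 E16.5 clusters, and it was 0 in all 13 P0 clusters. Dermal-like cells gave 45.9% at E13.5, epithelial-like cells 44.7%, endothelial-like cells 44.4% and macrophage-like cells 44.8%. At E16.5 the same classes gave 2.14%, 2.34%, 2.45% and 3.59%. Whether these UMIs came from free RNA in the suspension or from the cells was not tested.

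*Hbb-y* was seen in nearly all remaining cells at E13.5, whatever their class. It was seen in 99.9% of dermal-like remaining cells (median 9788.5 UMIs) and in as large a share of epithelial-like cells (median 6271 UMIs), and in 96.7% and 97.8% with each cell thinned to 3500 UMIs. The rarer genes differed more between classes. *Hbb-bh1* was seen in 33.3% of 294 endothelial-like cells (28.0% to 39.0%, median 7318.5 UMIs), in 17.3% of dermal-like cells (15.4% to 19.3%) and in 8.93% of 112 mast-like cells (4.36% to 15.8%, median 6028 UMIs). Thinned, these shares were 21.0%, 6.70% and 4.83%. *Hba-x*, thinned, was seen in 41.3% of endothelial-like and 26.5% of dermal-like cells, and *Hbb-bt* in 68.2% and 49.8%. Endothelial-like cells thus had the higher share for all 3 genes. They also held more globin, at 0.955% of the UMIs of remaining cells against 0.262% in dermal-like cells. In cells at or under 1% globin these levels were 0.238% and 0.237%. At E16.5, *Hbb-y* was seen in 21.3% of all remaining cells and, thinned, in 6.71%, and *Hbb-bs* in 99.5% and, thinned, 85.9%.

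The cells over 5% were unevenly distributed over clusters at E13.5. They occurred in 19 of 26 clusters, and reached 41.1% (120 of 292 cells) in a macrophage-like cluster, 38.2% (58 of 152) in an endothelial-like cluster and 29.0% (286 of 985) in an unnamed cluster with *Car2* and *Alas2* among its leading genes, while 7 of 1505 dermal-like cells were over 5%. At E16.5 they occurred in 20 of 25 clusters at up to 3.70%, and at P0 in 11 of 26 at up to 1.33%. The macrophage-like cluster held 61 cells under 10% embryonic and 49 over 40%, and the unnamed cluster 79 and 194. In an endothelial-like cluster of 25 cells the remaining cells were at 3.91% globin with an embryonic share of 3.04%, the lowest of the E13.5 clusters, and the highest was 51.8%, in another endothelial-like cluster. No cluster had the markers to be named erythroid.

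**Figure D4:**
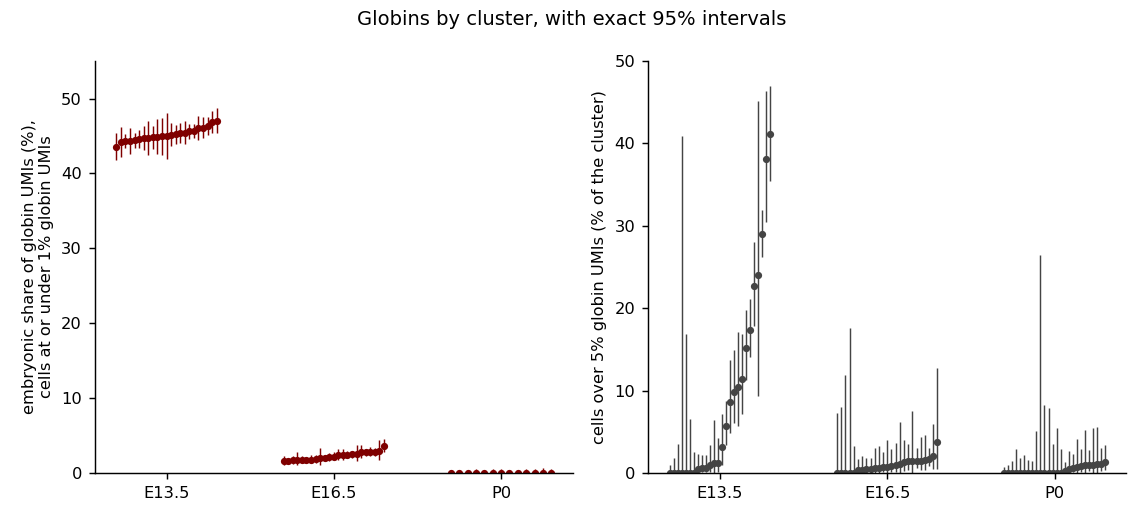
Clusters of each stage, each point 1 cluster with its exact 95% interval (counting error only), ordered by value. The left panel gives the embryonic share of globin UMIs (%) in cells at or under 1% globin UMIs, for clusters with at least 500 such UMIs: 43.5% to 47.0% at E13.5, then 1.57% to 3.59% at E16.5 and 0 at birth. The right panel gives the share of a cluster's cells over 5% globin UMIs (%), which reaches 41.1% at E13.5.

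Genes that serve haemoglobin were compared between the cells over 5% and the remaining cells of the same library, over the UMIs of genes other than the 7 globins. Differences are log2 of CPM plus 10, with intervals from counting error, and a gene was called at a difference of 1 or more. Among all genes with at least 50 UMIs, 0.22% were higher and 0.0513% lower at E13.5, then 0.294% and 0.331% at E16.5 and 1.39% and 4.52% at birth, where only 20 cells stood on one side. *Alas2* had the highest difference of all at each stage. It stood at 236 against 6.61 CPM at E13.5 (3.89, 3.78 to 3.99), then at 1066 against 3.59 CPM at E16.5 (6.31, 6.19 to 6.42) and at 1071 against 0.453 CPM at birth (6.69, 6.48 to 6.90). *Fech*, the enzyme that puts iron into haem, was higher by 1.5, 2.71 and 2.10. These were the only 2 of the 9 haem synthesis genes that were called at any stage. *Alad* and *Urod*, enzymes of the middle steps, were not called at any stage.

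Iron supply, membrane and enzyme genes were called in part. *Slc25a37*, which carries iron into mitochondria, was higher at every stage, by 1.30, 3.04 and 2.49. With it, *Fth1*, the ferritin heavy chain (1.09), and *Blvrb*, a haem breakdown enzyme (1.19), made 3 of 9 supply genes at E13.5, while *Slc25a37* was the only one at E16.5 and at P0. At P0, *Hmox1*, which degrades haem, had 0 UMIs in the 20 cells, which allows up to 17.4 CPM, against 21.0 in the remaining cells, and was the 1 supply gene called lower. Of the membrane genes, 2 of 10 tested were called at E13.5, *Slc4a1* (1.63) among them, and 2 of 6 at E16.5, among them *Epb41*, a protein of the membrane skeleton (1.94). At P0 none of 4 was called. Of 7 enzyme genes, *Bpgm*, which makes the regulator of oxygen affinity 2,3-bisphosphoglycerate, was higher by 2.09, 3.34 and 4.18, and *Car2*, a carbonic anhydrase, by 3.04, 3.03 and 1.65. *Gpx1*, glutathione peroxidase, was called at E16.5 (1.20).

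Transcription factors and regulators of the globin switch stood apart little. Of the erythroid factors, *Tal1* was 1 of 7 called at E13.5 (1.10, at 15.6 against 2.0 CPM), and none of 6 was called at E16.5 or at P0. *Klf1* and *Gata1*, the factors of adult β-globin and of red cell fate, had too few UMIs to be tested, with 13 and 7 in the E13.5 cells over 5% globin. None of 17 switch regulators was called at E13.5 and none of 16 at E16.5, and at P0 *Dnmt1*, the maintenance DNA methyltransferase, was the 1 of 16 (1.07, from 15 UMIs). *Bcl11a*, a repressor of embryonic globin in red cells, gave -0.22, -0.20 and -0.08. The median difference of this list was -0.14 at E13.5 and -0.11 at E16.5, against -0.04 and -0.02 over all tested genes. On the same scale the haem synthesis list gave 0.09 and 0.18, iron supply 0.35 and 0.20, membrane 0.60 and 0.24, enzymes 0.50 and 0.67, and erythroid factors 0.27 and 0.07. Medians at P0 are not given, since several listed genes had 0 UMIs in the 20 cells. Of the 3 erythroid receptors none was called at any stage. These lists were drawn up with earlier results of the data known.

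**Figure D5:**
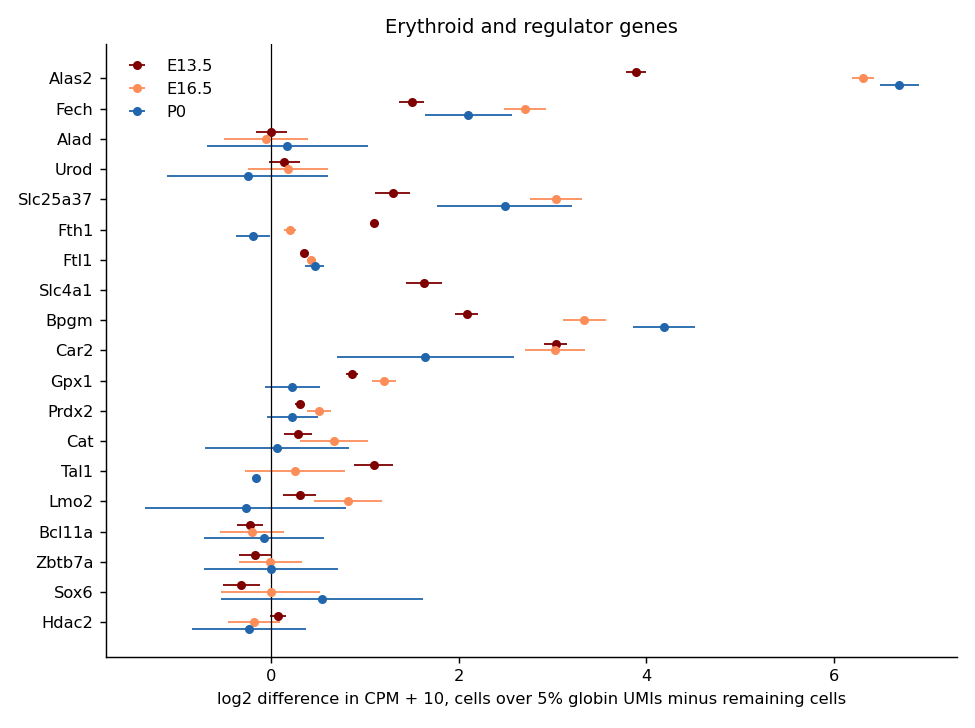
Difference of red cell and regulator genes between cells over 5% globin UMIs and remaining cells of the same library (x axis, log2 of CPM plus 10), with intervals from counting error and 1 colour per stage, for genes with at least 50 UMIs. Alas2, Fech, Slc25a37, Bpgm and Car2 lie to the right of 1 wherever they were tested, and Bcl11a, Zbtb7a, Sox6 and Hdac2 lie between -0.31 and 0.54.

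The cells over 5% were not cells of red cell genes alone. The study's methods drop cells with few genes, so red cells with few genes could not be among them. How far this filter decided the levels below was not tested. Summed over the 8 dermal markers, the level in the cells over 5% was 104% of that of the remaining cells at E13.5. It was 108% at E16.5 and 59.3% at birth. For the 8 epithelial markers it was 51.7%, 74.8% and 113% in the same order. The erythroid markers, of which 10 were in the table, summed to 343 CPM against 12.6 at E13.5, then 1286 against 6.16 at E16.5 and 1152 against 1.73 at birth, and most of this was *Alas2*. *Klf1* was at 0 in the cells over 5% at E16.5 and at P0. The mast markers stood at 303% of the remaining level at E13.5, with *Cma1*, a mast cell chymase, higher by 1.99, and the melanocyte markers stood at 454% at E16.5 and 389% at P0, with *Pmel*, a pigment organelle protein, higher by 1.78 and 2.34. At P0 the endothelial markers stood at 19.7% and the macrophage markers at 15.8%. Of the cells over 5% at E13.5, 13 of 763 lay in the mast-like cluster. In the melanocyte-like clusters lay 2 of 53 at E16.5 and 1 of 20 at P0. The part of these cell types in the differences was not tested. Besides the listed genes, *Ube2l6* was among the 10 highest at every stage (2.04, 4.12 and 3.94), as were *Alas2* and *Bpgm*.

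In the remaining cells, most globin genes stood lower at each later stage. CPM here is over all UMIs, globins included. Between E13.5 and E16.5, *Hbb-y* went from 1562 to 19.6 CPM, *Hba-x* from 135 to 3.03 and *Hbb-bh1* from 26.4 to 0.245, or 79.8-fold, 44.6-fold and 108-fold lower. *Hba-a1* went from 862 to 207 CPM, *Hba-a2* from 520 to 133 and *Hbb-bt* from 349 to 126, or 4.16-fold, 3.91-fold and 2.77-fold lower. *Hbb-bs* went from 750 to 557 CPM, 1.35-fold lower, and this was the member that changed direction: with cells over 1% globin left out as well, it was higher by 0.33 on the log2 scale where it had been lower (-0.42). By the call used above, 6 of the 7 genes were lower at E16.5, where 1.94% of all 14857 genes tested were lower and 1.69% higher. At the threshold of 1% this count was 5, since *Hbb-bt* came to -0.59 in place of -1.40, and the differences of *Hba-a1* and *Hba-a2* came to -1.18 and -1.01 in place of -2.01 and -1.89.

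From E16.5 to P0, *Hbb-y* went from 1279 UMIs to 0 and so was at least 303-fold lower, if the 0 is a count of 0 and not of the gene filter, and *Hba-x* went from 198 UMIs to 0, at least 46.8-fold lower. The floor is 3 UMIs over the remaining cells. *Hbb-bs* went from 557 to 195 CPM (2.85-fold lower), *Hbb-bt* from 126 to 26.7 (4.73-fold), *Hba-a1* from 207 to 81.7 (2.54-fold) and *Hba-a2* from 133 to 58.4 (2.28-fold). The 4 adult genes and *Hbb-y* made 5 of the 6 genes tested that were lower, against 1.78% of all 14454 genes lower and 1.57% higher. The count was 4 with the mean of scaled UMIs per cell, where *Hba-a2* came to -0.98 in place of -1.07, and 6 with 1 CPM added before the log. With 1 library a stage, the number of red cells that entered a library and the stage cannot be told apart in these levels.

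Other genes of the globin family were rare. *Hbq1a*, an α-like gene, had 46 UMIs at E13.5, then 8 at E16.5 and 0 at birth, and its near copy *Hbq1b* had 36, 4 and 0. Of the 46 UMIs of *Hbq1a*, 30 lay in the cells over 5%. *Hbb-bh2*, between *Hbb-bs* and *Hbb-bh1*, had 1 UMI in all. *Cygb*, cytoglobin of connective tissue, was no part of this pattern, with 749, 2592 and 1459 UMIs. Over the 77 clusters of the 3 libraries, the summed adult globins correlated best with *Alas2* (Pearson r = 0.92, and 0.96, 0.94 and 0.84 within the libraries), on log2 of CPM plus 10. The gene most like the summed embryonic globins was *B3gnt5* (0.89), but within E13.5 its r was -0.03 and within E16.5 0.16. Clusters of a library share its cells' RNA and depth, and the r values are descriptions.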

How the data were processed

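Pooled back skin of male C57BL/6 mice was measured at 3 ages (E13.5, E16.5, P0) with the 10x Chromium 3′ kit, 1 library per stage. The authors aligned reads to mm10 and counted UMIs with Cell Ranger 2.2.0, forced to the same number of cells in each library. They dropped genes found in fewer than 3 cells and then cells under 1750 genes. The deposited values were the natural log of 1 plus UMIs scaled to 10000 per cell. How reads shared by near-identical genes were treated is not given in the sources used here. All values above 0 were whole UMIs within a tolerance of 0.001 once the log was undone. The table held 16235 cells, all with at least 1750 genes, where the study states 15086. Libraries held 46599806 to 66239195 UMIs, with median depths of 6797 to 11021 per cell, and 32 to 44 barcodes were shared between any 2 libraries.

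Shares were computed from summed UMIs with exact (Clopper-Pearson) 95% intervals in scipy 1.17.1. A count of 0 was taken to allow 3. Each library was clustered in scanpy 1.11.5 without the 7 genes (2000 variable genes, 30 components, 15 neighbours, Leiden resolution 1), and clusters were named from marker lists. Doublets were kept. Scrublet called 0, 84 and 106 cells (1.61% at E16.5 and 2.09% at P0). Why it called none at E13.5 was not tested, and doublets cannot be taken as absent there. Log2 differences used CPM plus 10 over genes with at least 50 UMIs in both groups together, and the code was tested on simulated data. Thinned shares are expectations at 3500 UMIs, which left out 1 cell. Besides the 7 genes, genes named were those of the lists, the 10 with the highest difference in the cells over 5%, and the 5 most like the embryonic and adult sums over clusters. Some genes that these rules name are not reported here. The members and lists were chosen with earlier results of these data known. Alternatives were other thresholds, a minimum of 2500 genes, doublets left out, thinning, means over cells, other clusterings and 1 CPM added. Band edges and the share without the 2 E16.5 cells were added after the data were seen.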

Additional observations from a re-analysis of the deposited data

How the results depend on the processing

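No paired analysis was possible because each stage is 1 library with no replicate. The order of the embryonic share, E13.5 over E16.5 over P0, was kept in both sets of cells under every alternative run. For P0 the value was fixed in advance, since with 0 embryonic UMIs in all P0 cells no alternative could move it. In cells over 5% globin at E13.5 (36.8%), the share was 36.6% at a threshold of 1%, 37.1% at 20%, 42.0% with at least 2500 genes, 35.0% as a mean over cells and 34.9% thinned. At E16.5 (0.323%) it was 0.00733% at a threshold of 20%, 0.374% with at least 2500 genes, 1.66% as a mean over cells, 0.425% thinned and 0.00947% without the 2 embryonic-rich cells, which were 2 of 53. In the remaining E13.5 cells (41.0%) it was 45.2% at 1%, 37.9% at 20%, 42.6% with 2500 genes, 44.2% as a mean and 39.4% thinned, and in those of E16.5 (2.18%) it was 2.40% at 20%. The globin share of all UMIs in the remaining cells at a threshold of 1%, of 20% and with 2500 genes was 0.252%, 1.26% and 0.366% at E13.5, 0.103%, 0.144% and 0.104% at E16.5, and 0.0328%, 0.0637% and 0.0312% at P0. The range of the embryonic share over E13.5 clusters, 48.8 points, was 53.2 at resolution 2. Of 70 recomputed log2 differences of single globin genes, 69 kept their sign, but 54 lay beyond the counting interval of the reported value and 15 within it. The count of lower genes ran from 5 to 6 (E16.5) and from 4 to 6 (P0), with *Hbb-bt* at E16.5 (-0.59 at a threshold of 1%) and *Hba-a2* at P0 (-0.98 as a mean over cells) no longer called. The sign exception was *Hbb-bs* between E13.5 and E16.5 at a threshold of 1% (0.33 against -0.42). The cause was not tested. Doublet removal moved no share beyond its counting interval, and at E13.5 no doublets were called. Shares at P0 rest on 20 cells over 5%.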
